A study of Mus musculus with 16 samples.

Results

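The 9 genes examined carry adrenergic and muscarinic signals into the heart muscle cell: the adrenergic receptors Adrb1, Adrb3, Adra1a, Adra1b and Adra1d, the muscarinic receptor Chrm2, the receptor kinase Grk5, and the adenylyl cyclases Adcy5 and Adcy6. They were taken by symbol from the annotation of the array. Of the 9 genes, 5 had a named probe, with 9 probes in all among the 25697 probes and 16593 named genes of the array: 1 probe for Adra1b, 2 for Chrm2, 2 for Grk5, 1 for Adcy5 and 3 for Adcy6. Adrb1, Adrb3, Adra1a and Adra1d had no probe under their symbol and were not analysed here, and 1719 probes carried no symbol.

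The study compared hearts of BACHD mice with those of wild-type (WT) littermates, both on the C57BL6/J background, to follow the cardiac phenotype of this model of Huntington's disease with age. BACHD mice carry a bacterial artificial chromosome with the full-length human mutant huntingtin gene, in every cell rather than in the heart alone, and WT mice lack it. Total RNA was measured in 16 samples, 1 Illumina MouseRef-8 array each, with 4 samples in each of the groups young WT, young BACHD, aged WT and aged BACHD. Ages were labelled young and old, which the methods give as 3 and 15 mo, the tissue was labelled heart, which the methods narrow to the ventricles, and no drug is named for these mice.

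In the heart, noradrenaline from sympathetic nerves and circulating adrenaline act on beta-adrenergic receptors, which activate adenylyl cyclase through the G protein Gs and raise cyclic AMP, so that protein kinase A increases the rate and force of contraction. Alpha-1 receptors signal through Gq and phospholipase C, and the muscarinic M2 receptor, activated by acetylcholine from the vagus, inhibits adenylyl cyclase through Gi and opens a potassium channel. G protein-coupled receptor kinases phosphorylate activated receptors and uncouple them, which ends the signal.

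Sequence is shown for Grk5, the only gene of the set called in any comparison, and for Chrm2, the receptor detected on every array. Promoters of 4 of the 5 measured genes, all but Adcy6, matched an entry of the RefSeq table used. The 250 bases before the start were searched on both strands. Capitals mark a match to the half-site of the cAMP response element (letters TGACG), to the GC box (letters GGGCGG), to the CCAAT box or to the TATA box (letters TATAAA), motifs that do not overlap here. Both lie on the + strand of build GRCm38.p6, Grk5 at chr19:60889499-60889748 and Chrm2 at chr6:36387834-36388083.
Grk5: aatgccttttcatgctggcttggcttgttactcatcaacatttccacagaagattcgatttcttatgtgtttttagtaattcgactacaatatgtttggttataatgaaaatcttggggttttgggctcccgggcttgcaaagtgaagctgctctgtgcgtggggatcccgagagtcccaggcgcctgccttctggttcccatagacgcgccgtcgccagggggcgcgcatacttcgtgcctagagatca
Chrm2: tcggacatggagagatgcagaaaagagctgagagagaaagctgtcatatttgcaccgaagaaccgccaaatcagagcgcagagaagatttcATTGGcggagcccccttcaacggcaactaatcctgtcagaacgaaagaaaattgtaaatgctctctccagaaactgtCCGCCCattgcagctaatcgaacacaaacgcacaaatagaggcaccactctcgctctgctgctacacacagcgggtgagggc
The Grk5 window held 0 matches. The Chrm2 window held a CCAAT box 159 to 155 bases and a GC box 82 to 77 bases before the start, both on the opposite strand. Of 32851 RefSeq promoters of the same length, 17.8% held the half-site, 32.7% the GC box, 33.8% the CCAAT box and 12.4% the TATA box.

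Detection was called where the p-value against the negative control beads was below 0.01. Each array detected 9780 to 10755 probes with a median signal of 132.7 to 156.81, and the 120 pairs of arrays correlated at 0.984 to 0.994. The 5 measured cardiomyocyte markers of 6 listed, Myh6, Actc1, Tnni3, Ryr2 and Myl2, were detected on all 16 arrays. The mean log2 expression of 7 atrial cardiomyocyte markers was 6.56 on aged WT array 2, 7.44 on aged WT array 4, 6.49 on aged BACHD array 3 and 6.35 on aged BACHD array 4, and 5.23 to 5.54 on the other 12 arrays. Of these markers, Myl4 was detected on 16 arrays, Dkk3 on 12, Myl7 and Sln on 4 each, Tbx5 on 1, and Bmp10 and Nr2f2 on none. These 4 arrays stood apart, so results are also given without them, with only 2 arrays left in each aged group. In whole ventricle, fewer cells of a type and less RNA per cell cannot be told apart.

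With age, Grk5 rose in WT hearts and was the only one of the 5 measured genes past the threshold in any comparison. The threshold was P below 0.005 without adjustment in a limma model of all 25697 probes, and a gene was represented by its brightest probe. In young BACHD against young WT hearts, 0 of the 5 genes were called higher and 0 lower, where 0.253% and 0.230% of all probes were. At 15 mo, BACHD against WT again gave 0 higher and 0 lower, beside 0.498% and 0.397% of all probes. In aged against young WT, 1 of 5 was called higher and 0 lower, beside 1.67% and 1.10%. In aged against young BACHD the counts were 0 and 0, beside 2.69% and 2.47%. The change of the genotype effect with age was called for 0 genes in either direction, beside 0.307% higher and 0.304% lower. At P below 0.05 without adjustment, the 5 comparisons in this order held 0, 1, 2, 2 and 1 of the 9 probes.

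**Figure D1:**
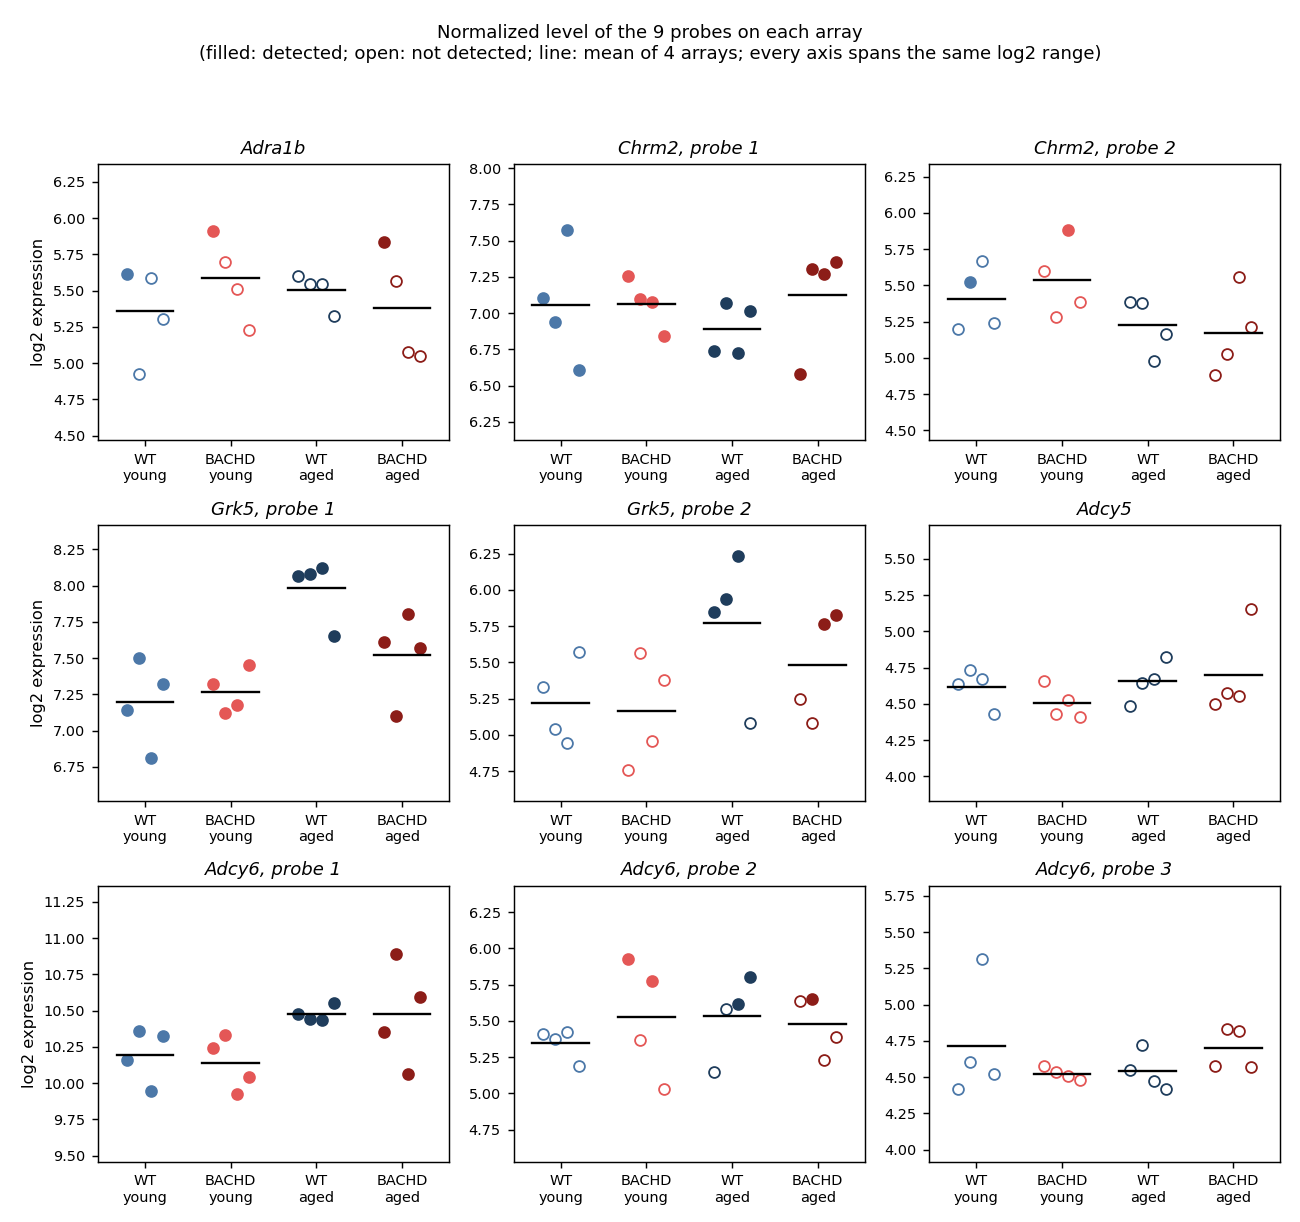
Log2 expression of the 9 probes (vertical axis, normalized) on the 4 arrays of each group (horizontal axis), with filled points for detected, open points for not detected and lines for group means. On the first Grk5 probe the 4 aged WT arrays lie at 7.65 to 8.12, above the young WT arrays at 6.81 to 7.50, while Adcy5 and the third Adcy6 probe are open on all 16 arrays.

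Among the receptors, no difference of Adra1b or Chrm2 by genotype or age passed the threshold. Adra1b, the alpha-1B receptor that acts through Gq, lay close to background: its probe was detected on 3 of 16 arrays, 1 each of young WT, young BACHD and aged BACHD. Its log2 expression was 5.62, 4.93, 5.59 and 5.30 in young WT and 5.91, 5.70, 5.51 and 5.23 in young BACHD. It was 5.60, 5.54, 5.55 and 5.33 in aged WT and 5.84, 5.57, 5.08 and 5.05 in aged BACHD. All 4 groups overlapped. The 4 log2 differences between groups ran from -0.20 (aged against young BACHD) to 0.23 (young BACHD against young WT), with limma P of 0.250 to 0.538. The 95% interval in the young comparison was -0.18 to 0.64. Without the 4 arrays of raised atrial markers, the aged BACHD against aged WT difference turned from -0.12 to 0.13 (adjusted p = 0.957) and the age difference in BACHD from -0.20 to 0.12 (adjusted p = 0.904).

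Chrm2, the M2 receptor that slows the heart and is most abundant in the atria and pacemaker tissue, was detected on all 16 arrays by its first probe. The log2 expression on that probe was 7.10, 6.94, 7.57 and 6.61 in young WT and 7.25, 7.09, 7.07 and 6.84 in young BACHD. It was 6.74, 7.07, 6.73 and 7.02 in aged WT and 6.58, 7.30, 7.27 and 7.35 in aged BACHD. In aged BACHD, 3 of the 4 arrays lay above every aged WT array and array 1 lay below them all. The group means were 7.06 ± 0.40, 7.07 ± 0.17, 6.89 ± 0.18 and 7.13 ± 0.37 (SD, n = 4) in the same order.

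The genotype difference in Chrm2 was 0.01 in young hearts (limma P = 0.959, 95% interval -0.40 to 0.42) and 0.24 in aged hearts (P = 0.235, interval -0.17 to 0.65, exact two-sided permutation p = 0.229). Age gave -0.17 in WT (exact permutation p = 0.571) and 0.06 in BACHD (exact permutation p = 0.771). Without the 4 arrays of raised atrial markers, the age differences were -0.32 in WT (adjusted p = 0.747) and -0.12 in BACHD (adjusted p = 0.91), and the aged genotype difference was 0.21 (adjusted p = 0.931). The second Chrm2 probe was detected on 2 arrays and overlapped between all groups. Its age difference in BACHD was -0.37 (limma P = 0.0378, adjusted p = 0.287, exact permutation p = 0.114), which is opposite in sign to that of the first probe. Over the 16 arrays the 2 probes had a Pearson r of 0.43.

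Grk5, a kinase that phosphorylates activated beta-adrenergic receptors and other G protein-coupled receptors, carried the only called change. On its first probe, detected on all 16 arrays, log2 expression was 7.14, 7.50, 6.81 and 7.32 in young WT and 8.07, 8.08, 8.12 and 7.65 in aged WT. All 4 aged WT arrays were above all 4 young WT arrays, a separation that 6.81% of all probes showed in either direction in this comparison. The young BACHD arrays were at 7.32, 7.12, 7.17 and 7.45, and the aged BACHD arrays at 7.61, 7.10, 7.80 and 7.57. In BACHD, 3 of the 4 aged arrays were above the young ones and aged array 2 was below them all.

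In WT the log2 difference with age was 0.79 (standard error 0.16, 95% interval 0.44 to 1.13), a 1.73-fold higher level. The limma P was 0.00021, rank 144 of 25697, and the Benjamini-Hochberg adjusted p was 0.0375, a threshold of 0.05 that 0.514% of all probes passed in the same direction. The exact two-sided permutation p was 0.0286, the smallest that 4 against 4 arrays can give. In BACHD the difference with age was 0.26 (standard error 0.16, 95% interval -0.09 to 0.60, P = 0.136, adjusted p = 0.525, exact permutation p = 0.2).

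The genotype difference in Grk5 was 0.07 in young hearts (95% interval -0.27 to 0.42, exact permutation p = 0.8). In aged hearts BACHD was at 7.52 ± 0.30 and WT at 7.98 ± 0.22 (SD, n = 4), a log2 difference of -0.46 (95% interval -0.81 to -0.11). It missed the threshold, with P = 0.0127, adjusted p = 0.702 and exact permutation p = 0.0571, and the groups overlapped through aged WT array 4 at 7.65. From young to aged hearts the genotype effect changed by -0.53 (standard error 0.23, 95% interval -1.02 to -0.04), at a limma P of 0.0353 and adjusted p = 0.796, which missed the threshold.

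The second Grk5 probe was dim and was detected on no young array, on 3 of 4 aged WT arrays and on 2 of 4 aged BACHD arrays. Its log2 expression was 5.33, 5.04, 4.94 and 5.57 in young WT and 5.85, 5.94, 6.23 and 5.08 in aged WT. It was 4.76, 5.57, 4.96 and 5.38 in young BACHD and 5.25, 5.08, 5.76 and 5.82 in aged BACHD. Aged WT array 4 was again the lowest of its group, and on this probe the aged and young groups overlapped. No young WT array detected this probe, so each was counted at the higher of its own value and its dimmest detected signal. The mean of the 4 aged WT arrays, at their own values, was then 1.09-fold higher. Aged WT array 4 did not detect the probe either, so 1.09 is not a lower bound. The fitted difference was 0.55 (adjusted p = 0.42, exact permutation p = 0.0857). Over the 16 arrays the 2 Grk5 probes had a Pearson r of 0.72, and 0.54 after subtracting group means.

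Leaving out any 1 of the 8 WT arrays left the Grk5 difference with age in WT at 0.66 to 0.90, past P of 0.005 in all 8 fits, while the adjusted p exceeded 0.05 in 6 of them (0.0244 to 0.118 over the 8). Without aged WT array 4, which also had the highest atrial marker mean, the aged genotype difference became -0.57 and passed the threshold (adjusted p = 0.418). The same difference shrank to -0.32 and missed the threshold when aged BACHD array 2, the lowest of its group, was left out. Its range over the 8 fits with 1 aged array left out was -0.57 to -0.32. Without the 4 arrays of raised atrial markers, the difference with age was 0.90 in WT, still past the threshold (adjusted p = 0.0923), and 0.09 in BACHD (adjusted p = 0.915). The aged genotype difference was then -0.74 (adjusted p = 0.333) and its difference from the young one -0.81 (adjusted p = 0.469), neither past the threshold. With both probes averaged, the difference with age in WT was 0.67, past the threshold (adjusted p = 0.107).

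Adcy5 and Adcy6 are the adenylyl cyclases of the heart muscle cell that beta-adrenergic receptors activate and that Gi and calcium inhibit. Adcy5 was not detected on any array. Its log2 expression ran from 4.43 to 4.73 in young WT, 4.41 to 4.66 in young BACHD, 4.49 to 4.82 in aged WT and 4.50 to 5.15 in aged BACHD. The groups overlapped. Both sides of every comparison were below detection, so that no fold was measured and its fitted log2 differences, -0.11 to 0.19, compare values at background.

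Adcy6 was detected on all 16 arrays by its first probe. The log2 expression was 10.16, 10.36, 9.94 and 10.32 in young WT and 10.48, 10.45, 10.43 and 10.55 in aged WT, so that every aged array was above every young one. It was 10.24, 10.33, 9.92 and 10.04 in young BACHD and 10.35, 10.89, 10.07 and 10.59 in aged BACHD, which overlapped through aged array 3. The spread of aged BACHD (SD 0.35) was wider than that of aged WT (SD 0.05), and the means of both aged groups were 10.48 and 10.47 (n = 4).

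The difference with age in Adcy6 was 0.28 in WT (standard error 0.15, limma P = 0.0749, adjusted p = 0.519, exact permutation p = 0.0286). In BACHD it was 0.34 (standard error 0.15, P = 0.0345, adjusted p = 0.275, exact permutation p = 0.114), and neither passed the threshold. Without aged BACHD array 3 the difference in BACHD became 0.48 and passed it (adjusted p = 0.0563). The same difference fell to 0.20 and missed the threshold when aged BACHD array 2, the highest of its group, was left out. Its range over the 8 fits with 1 array left out was 0.20 to 0.48. Genotype gave -0.06 in young hearts (95% interval -0.37 to 0.25) and -0.00098 in aged hearts (95% interval -0.31 to 0.31), and the change between the ages was 0.06 (95% interval -0.38 to 0.50). Without the 4 arrays of raised atrial markers the aged genotype difference was 0.17 (adjusted p = 0.911).

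The other Adcy6 probes were dim. The second was detected on 5 arrays, 2 of young BACHD, 2 of aged WT and 1 of aged BACHD, and ranged from 5.03 to 5.93. The third was detected on none and ranged from 4.42 to 5.31. Of their 10 tests, none reached a limma P below 0.05, and their Pearson r with the first probe over the 16 arrays was 0.19 and -0.17.

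**Figure D2:**
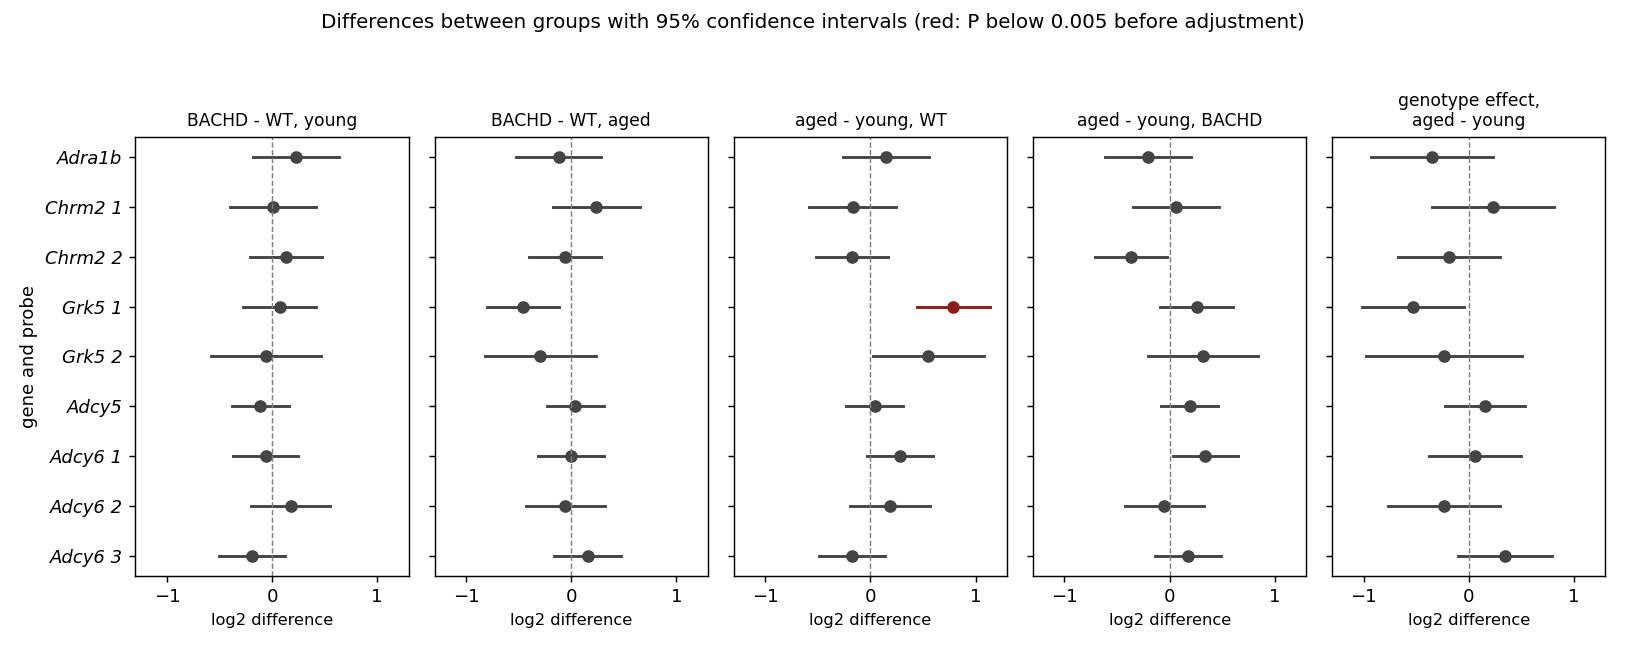
Log2 differences (horizontal axis) with 95% confidence intervals for the 9 probes (vertical axis) in the 5 comparisons, with the 1 called difference in red. The interval of Grk5 probe 1 with age in WT runs from 0.44 to 1.13, and 39 of the 45 intervals include 0.

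Counting probes of the members whose groups did not overlap gave 0 of 9 for genotype in young hearts and 0 in aged hearts, beside 2.88% and 3.21% of all probes. With age it gave 2 in WT, the first probes of Grk5 and Adcy6, beside the 6.81% above, and 0 in BACHD, beside 8.90%. The median log2 difference of the 5 genes was 0.01, -0.00098, 0.15, 0.19 and 0.06 in the order of the comparisons above. Against these stood medians over all genes of 0.0064, -0.0012, 0.00081, -0.0036 and -0.0074. The value of 0.15 is that of Adra1b, detected on 1 young WT array and on no aged WT array. The value of 0.19 is that of Adcy5, which was detected on no array.

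Each of the 3 genes detected throughout was set beside the 6434 genes whose brightest probe was detected on all 16 arrays, by Pearson r over the 16 arrays, as a description. The genes most like Grk5 were Acsm5 (r = 0.89), Cxcl12 (r = 0.88) and Slc17a7 (r = 0.88), with r of 0.65 to 0.72 after group means were subtracted. Those most like Adcy6 were Ist1 (r = 0.88), Timp3 (r = 0.88) and Armcx5 (r = 0.87), and those most like Chrm2 were Ppp4r3b (r = 0.78), Kbtbd7 (r = 0.77) and Jkamp (r = 0.76). Arrays of one group share genotype and age. Between members, the first probes of Grk5 and Chrm2 had r of -0.48, and those of Grk5 and Adcy6 of 0.30, or -0.28 within groups.

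Cell type markers were read beside the Grk5 difference. The mean of 8 smooth muscle and pericyte markers was 7.94 to 8.16 in young WT and 8.18 to 8.46 in aged WT, without overlap, and 7.90 to 8.19 in young BACHD and 8.12 to 8.35 in aged BACHD. Of these markers, 6 were detected on every array and Tagln and Cnn1 on none. With age in WT only Myh11, the smooth muscle myosin, was called (log2 difference 0.82, adjusted p = 0.0617). In BACHD Myh11 stood at 0.56 with age (adjusted p = 0.132), which missed the threshold. The other 5 detected markers gave, in WT, 0.28 for Acta2, 0.21 for Pdgfrb, 0.11 for Abcc9, -0.01 for Rgs5 and -0.10 for Kcnj8, so the list did not rise as a whole. Tagln and Cnn1, at background but part of the mean, gave fitted 0.47 and -0.12 in WT. The 5 cardiomyocyte markers had a mean of 12.67 to 12.84 in young WT and 12.73 to 12.86 in aged WT. The mean of 5 fibroblast markers was 8.76 to 9.02 in young WT and 8.31 to 8.90 in aged WT, that of 4 endothelial markers 7.58 to 7.87 and 7.37 to 7.70, and that of 2 measured macrophage markers 7.56 to 7.99 and 7.42 to 7.64. In BACHD the macrophage mean was 7.57 to 7.84 in young and 6.76 to 7.37 in aged hearts, and the aged BACHD arrays lay below all aged WT arrays. Adgre1, a macrophage receptor, was called lower in aged BACHD than in aged WT (-0.61, adjusted p = 0.528) and with age in BACHD (-0.80, adjusted p = 0.0205), and C1qa, a complement subunit, with age in BACHD (-0.46, adjusted p = 0.0776). The fibroblast mean in BACHD was 8.83 to 8.95 in young and 8.34 to 8.85 in aged hearts. The collagen genes Col1a1 (-1.25, adjusted p = 0.0255) and Col3a1 (-0.92, adjusted p = 0.0657) were called lower with age in BACHD, and stood at -0.81 and -0.79 with age in WT, which missed the threshold. On the atrial list only Dkk3, detected on 12 arrays, was called with age, higher in WT (1.27, adjusted p = 0.113) and BACHD (1.18, adjusted p = 0.0772). Of the 6 measured adipocyte markers none was detected in young WT and at most 2 on an aged WT array. The part of these shifts in the Grk5 differences and in the pathway calls with age in BACHD was not tested.

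**Figure D3:**
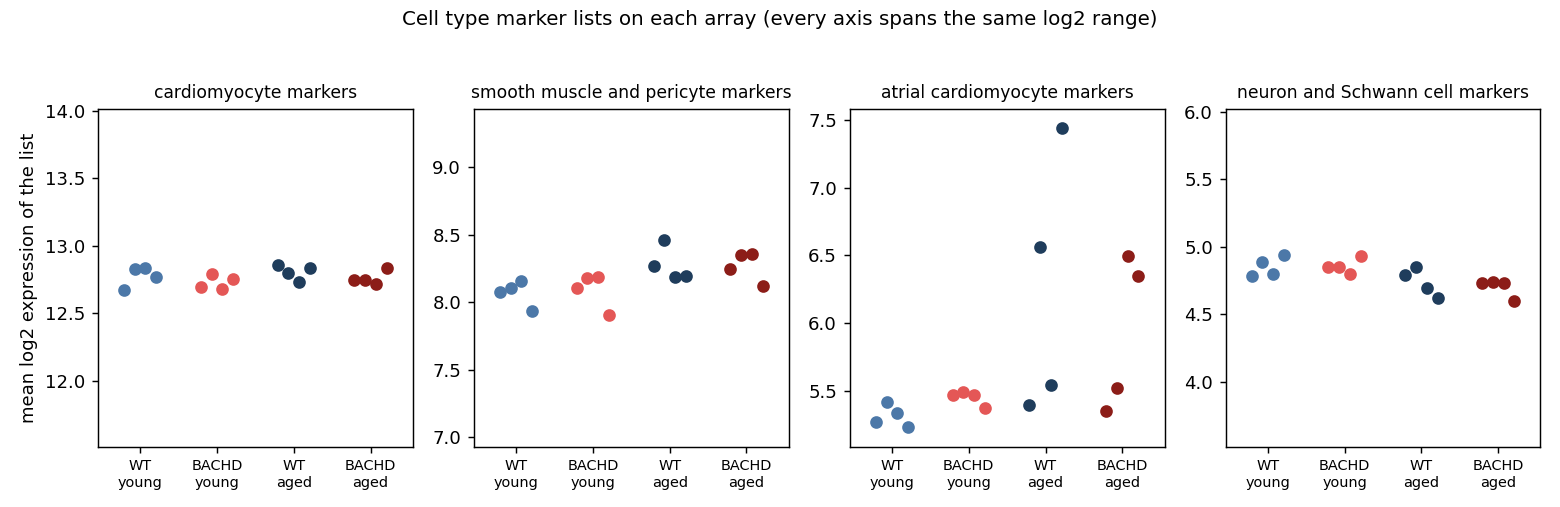
Mean log2 expression of 4 marker lists (vertical axes, the same span in each panel) on the 4 arrays of each group (horizontal axis). Atrial markers are raised on 4 aged arrays (6.35 to 7.44, against 5.23 to 5.54 elsewhere), and the mean of the smooth muscle list lies higher on aged than on young WT arrays (8.18 to 8.46 against 7.94 to 8.16).

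Around the 9 genes, 120 further genes of the pathway were listed in 10 groups by role, of which 108 had a named probe. In aged against young WT, 4 were called higher and 3 lower, beside 1.67% and 1.10% of all probes. In aged against young BACHD, 6 were called higher and 5 lower, beside 2.69% and 2.47%. The shares of all probes were larger in a fit of the 10960 probes detected on at least 4 arrays. There 542 were called with age in WT and 1091 in BACHD. By genotype, 2 pathway genes were called higher and 0 lower in young hearts, beside 0.253% and 0.230%, and 1 higher and 0 lower in aged hearts, beside 0.498% and 0.397%. The genotype effect was lower in aged than in young hearts for 1 gene, beside 0.304%. The median log2 difference of the 108 genes was 0.02 in the young and -0.0029 in the aged genotype comparison, and 0.01 and 0.0018 with age in WT and BACHD. Called in at least 1 comparison were 14 genes, with 22 calls, of which 10 held with each array left out in turn and 8 with arrays scaled to their median instead of quantile normalized. Those 8 were the calls of Ddc in both genotypes, of Dbh, Crem, Gnb4 and Akap7 with age in BACHD, of Adcy8, and of Adra2c between the ages. Without the 4 arrays of raised atrial markers, calls were lost for Camk2d and Popdc2 in WT, Gnb2 and Pkia in BACHD, Pde8a with age in both, Prkar1a by genotype and Adra2c between the ages. That fit held 2 arrays in each aged group, and the part of the smaller number of arrays in these losses was not tested.

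The largest called difference was that of a transmitter gene: of 12 measured genes of transmitter synthesis and breakdown, 1 was called higher and 1 lower with age in WT, and 1 higher and 2 lower in BACHD. Ddc, the decarboxylase that makes dopamine on the way to noradrenaline, was at 6.37 to 6.87 in young WT and 4.67 to 5.16 in aged WT, at least 1.95-fold lower (fitted log2 difference -1.74, adjusted p = 1.19e-05). In BACHD it was at 6.25 to 6.74 and 4.88 to 5.14, at least 1.79-fold lower (-1.42, adjusted p = 0.000118). Its probe was detected on all 8 young arrays and on none of the 8 aged ones, so that only these bounds are measured. Dbh, which converts dopamine to noradrenaline, was called lower with age in BACHD (-1.12, adjusted p = 0.014), from 6.50 to 6.85 down to 5.21 to 5.82, and in WT stood at 6.37 to 6.64 in young and 5.38 to 6.60 in aged hearts. Dbh was detected on every young array, on 3 of 4 aged BACHD arrays and on 2 of 4 aged WT arrays, so its aged values lie partly at background. Maob, a monoamine oxidase that degrades such amines, was called higher with age in WT (0.40, adjusted p = 0.0274) and BACHD (0.32, adjusted p = 0.0417).

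Of the 6 measured neuron and Schwann cell markers, Dbh is itself one and was the only one detected on any array. The mean of the 6 was 4.78 to 4.94 in young WT, 4.80 to 4.93 in young BACHD, 4.62 to 4.85 in aged WT and 4.60 to 4.74 in aged BACHD. The other 5, Th, Npy, Chat, Slc18a3 and Prph, were at background on all 16 arrays, with fitted differences with age of -0.12 (Chat) to 0.13 (Prph) in WT and -0.06 (Th) to 0.11 (Prph) in BACHD, none past the threshold. So the lower mean in aged hearts was that of Dbh, and this list gave no measure of nerve content apart from it. The part of nerve content in the Ddc and Dbh differences was not tested.

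Among protein kinase A subunits, its inhibitor, anchors and the cyclic AMP-binding Popdc2, 1 of 16 was called higher and 1 lower with age in WT, and 3 higher and 1 lower in BACHD. Pkia, a peptide inhibitor of protein kinase A, was lower with age in WT (-0.28, adjusted p = 0.048) and BACHD (-0.24, adjusted p = 0.0488), with aged levels of 12.49 to 12.68 below young levels of 12.75 to 12.96 in both genotypes. The BACHD call of Pkia was lost without young BACHD array 1 or aged BACHD array 3 (P up to 0.00633). Popdc2 was higher with age in WT (0.23, adjusted p = 0.17) and BACHD (0.22, adjusted p = 0.0952), and lost the call without any 1 of 7 of the 8 arrays in each (P up to 0.0182 and 0.0211). Akap7, an anchor of the kinase, was higher with age in BACHD (0.41, adjusted p = 0.0116).

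Prkar1a, a regulatory subunit of protein kinase A, was higher in aged BACHD (13.48 to 13.76) than in aged WT (13.32 to 13.52) by 0.24 (adjusted p = 0.555) and than in young BACHD by 0.24 (adjusted p = 0.0908). The first call was lost without aged BACHD array 1 or 2 or aged WT array 2, 3 or 4, and the second without any young BACHD array or aged BACHD array 1 or 2 (P up to 0.0194 in both). The comparisons share the aged BACHD arrays. Prkar1a and Pde8a were also listed by the study from these arrays, so their calls are not independent evidence.

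Of 12 phosphodiesterases, which degrade cyclic nucleotides, only Pde8a was called. It was higher in young BACHD than young WT (0.42, adjusted p = 0.948) and higher with age in WT (0.43, adjusted p = 0.138) and BACHD (0.40, adjusted p = 0.0944). Young WT lay at 6.98 to 7.14, young BACHD at 7.17 to 7.67, aged WT at 7.38 to 7.65 and aged BACHD at 7.62 to 8.10, so that young WT overlapped with no other group and the others overlapped with each other. In aged hearts the genotype difference was 0.39 and missed the threshold (adjusted p = 0.566). The study, from the same arrays, listed Pde8a as higher in BACHD at both ages, past that threshold, so the aged result differs from the one it reported. Without 1 array the young call was lost in 6 of 8 cases (young WT arrays 1, 2 and 4 and young BACHD arrays 1, 2 and 3, P up to 0.0146). The WT age call was lost in 5 of 8 (young WT arrays 1, 2 and 4 and aged WT arrays 2 and 4, P up to 0.012) and the BACHD age call in 4 of 8 (young BACHD arrays 1 and 4 and aged BACHD arrays 2 and 4, P up to 0.021).

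The list of protein kinase A substrates and phosphatases held 15 genes, among them the separate kinase Camk2d. Of these 15, 1 was called lower with age in WT and 1 in BACHD. Camk2d, the calcium and calmodulin-dependent kinase of the heart, was lower with age in WT (-0.34, adjusted p = 0.126), and lost the call without young WT array 2 or 4 or aged WT array 3 or 4 (P up to 0.0109). Another Camk2d probe, detected on 8 arrays, gave 0.46 in the same comparison, the opposite sign, at a limma P of 0.0155. Its remaining 2 probes, detected on 16 and 2 arrays, gave -0.30 and -0.26, the sign of the call, without passing the threshold. Crem, a transcription factor that responds to cyclic AMP, was lower with age in BACHD (-1.01, adjusted p = 0.00722), from 6.73 to 7.04 in young hearts to 5.26 to 6.25 in aged hearts. Both other Crem probes with signal, each detected on 15 arrays, gave -0.57 and -0.63. In WT, Crem stood at 6.29 to 6.72 in young and 5.66 to 6.18 in aged hearts. The brightest Crem probe was detected on every young array and on 3 of 4 aged arrays of each genotype.

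Of 23 G protein subunits and RGS genes, 1 was called higher and 1 lower with age in BACHD and none in the other comparisons. Gnb4, a G protein beta subunit, was lower (-0.93, adjusted p = 0.00746) and Gnb2 higher (0.21, adjusted p = 0.0643), and the Gnb2 call was lost without young BACHD array 1, 3 or 4 or aged BACHD array 2 or 4 (P up to 0.011). Gnb4 was detected on every young BACHD array and on 3 of 4 aged BACHD arrays. Of 7 other adenylyl cyclases, Adcy8 was called higher with age in WT (0.79, adjusted p = 0.0373), although its probe was detected on 2 aged WT arrays only and no fold could be bounded. Of 5 other receptors, Adra2c, an alpha-2 receptor, was called higher in young BACHD than in young WT (0.40, adjusted p = 0.948), and its genotype effect was lower in aged than in young hearts (-0.58, adjusted p = 0.759). Its probe was detected on no array, so both values compare levels at background. The young call was lost without young WT array 2, 3 or 4 or young BACHD array 1 or 2 (P up to 0.0132), and the difference between the ages in 9 of 16 cases (P up to 0.00718): young WT 3 and 4, young BACHD 1 and 2, aged WT 1, 2 and 4, and aged BACHD 1 and 2.

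None of the 5 measured receptor kinases and arrestins other than Grk5 was called, nor any of 11 genes of the Gq branch or of the 2 subunits of the muscarinic potassium channel. Closest in each list were Grk3, which was not detected on any array, with a fitted 0.33 for the change of the genotype effect between the ages (adjusted p = 0.761), and Arrb2, an arrestin that binds phosphorylated receptors, with -0.32 with age in BACHD (adjusted p = 0.192). In the Gq branch they were Plcb3, a phospholipase C, with -0.25 in aged BACHD against aged WT (adjusted p = 0.745), and Dgkz, a diacylglycerol kinase, with 0.22 with age in WT (adjusted p = 0.403). For the channel opened by Chrm2, Kcnj3 gave 0.30 with age in WT (adjusted p = 0.388), and Kcnj5, not detected on any array, a fitted 0.22 (adjusted p = 0.587).

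**Figure D4:**
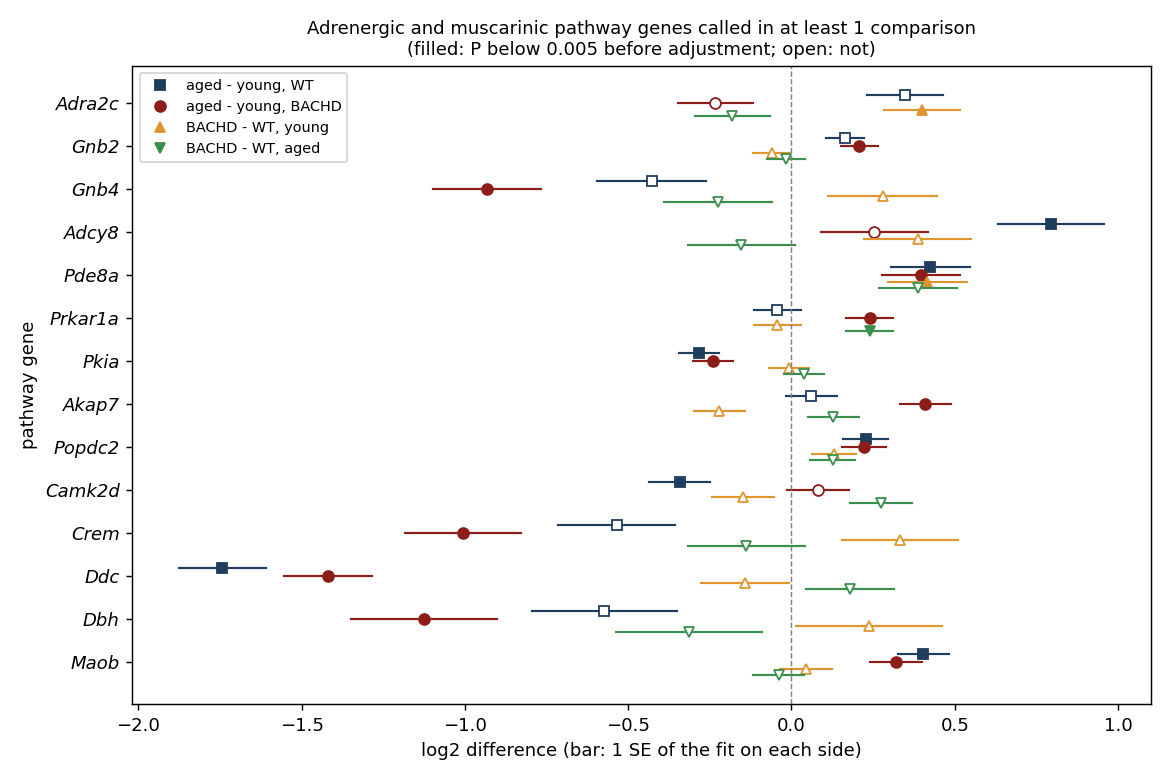
Log2 differences (horizontal axis, bars of 1 standard error on each side) of the 14 pathway genes called in at least 1 comparison (vertical axis), with filled symbols for calls at P below 0.005. Ddc lies at -1.74 in WT and -1.42 in BACHD with age, and the other called differences lie between -1.12 and 0.79.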

How the data were processed

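Ventricle RNA of 16 mice was hybridised to 1 Illumina MouseRef-8 v2.0 array each. The authors extracted bead signals with BeadStudio (version not given in the sources used here) and deposited, per probe and array, the intensity and its detection p-value, without background correction. The deposited log2 values equalled the quantile-normalized log2 of the intensity within 5.0e-09. Groups and replicate numbers came from the labels, and the methods count 4 mice per group, so each array was taken as 1 mouse. Slide and scan were not given in the sources used here.

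The intensity was corrected by normexp with inferred negative controls and an offset of 16, then quantile normalized and log2 transformed in limma 3.58.1 (R 4.3.3). All 25697 probes entered one model of the 4 groups, and 5 contrasts were tested by moderated statistics at P below 0.005, the threshold of the methods, with Benjamini-Hochberg adjusted p-values over all probes. Exact permutation tests were two-sided. The method was tested on simulated data.

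The brightest probe stood for a gene. Named are every member on every probe, pathway genes past the threshold in any contrast or otherwise the 2 of smallest P in a list, the 3 genes of highest correlation with each member detected throughout, and marker genes. Members and lists were chosen with earlier results of these data known. Alternatives were no background correction (the deposited log2 values), an offset of 50, median scaling, leaving out probes detected on fewer than 4 arrays, fitting a comparison on its own 8 arrays, trended and robust variances, array weights, averaged probes, the replicate number as a block, each array left out in turn and, chosen after seeing the data, leaving out the 4 arrays of raised atrial markers. Promoter sequences and their coordinates are from RefSeq (GRCm38.p6).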

Additional observations from a re-analysis of the deposited data

Results flagged for a closer look

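Of 36 groups of 4 arrays over the 9 probes, 3 held an array farther from the other 3 than Dixon's 95% limit allows, where chance gives about 1 in 20. Chrm2 probe 1 was 6.578 on aged BACHD array 1, below 7.27 to 7.35 on the other 3. Grk5 probe 1 was 7.654 on aged WT array 4, below 8.07 to 8.12 on the other 3. Adcy5 was 5.155 on aged BACHD array 4, above 4.50 to 4.58 on the other 3, and was detected on none of them. The genotype effect on Grk5 probe 1 differed between the ages by -0.53 at an unadjusted P of 0.0353 (limma adjusted p = 0.796), the only 1 of 9 probes with such a P below 0.05.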

How the results depend on the processing

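The call of Grk5 with age in WT stayed past P of 0.005 under every alternative run, with a log2 difference of 0.49 to 0.90 and adjusted p of 0.00597 to 0.108, and with each array left out. No other member was called, except with 1 array left out: the count of called members was then 0 to 1 for aged against young BACHD (Adcy6 without aged BACHD array 3) and 0 to 1 for aged BACHD against aged WT (Grk5 without aged WT array 4). The aged genotype difference of Grk5 was -0.74 to -0.30 (P from 0.00581 to 0.0554), and the change of its genotype effect between the ages -0.81 to -0.33 (P from 0.0109 to 0.156) under the alternatives other than leaving out 1 array. Deviations of same-numbered arrays correlated at -0.50 to 0.31 and in no comparison above 0.1 in all 4 pairs, although all 4 were above 0 between aged WT and aged BACHD and between young and aged BACHD, so the numbers were not taken to pair the mice. With the replicate number as a block, the counts of called members were 0, 0, 1, 0 and 0, as without it, and the Grk5 call kept its side of the threshold (adjusted p = 0.0718). The block left the sizes of the Pde8a differences as they were, but none of the 3 stayed past the threshold (adjusted p = 0.831 by genotype in young hearts, 0.166 with age in WT and 0.118 in BACHD). Adra1b and Adcy5 had no value with dim probes left out. With median scaling, which moved the median of all probes by -0.03 to 0.03, pathway calls with age fell from 7 to 3 in WT and from 11 to 5 in BACHD. With dim probes left out there were 5 and 7, beside 542 and 1091 of the 10960 probes then tested. Over these alternatives the pathway counts by genotype were 0 to 3 in young hearts (2 as reported, 1 with the block) and 0 to 4 in aged hearts (1 as reported), and 0 to 3 for the change between the ages (1 as reported).

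Differences that changed sign were small and not called, and the cause was not tested. Chrm2 in young genotype became -0.0030 without background correction, and with age in BACHD -0.0033 with array weights, -0.15 with probes averaged and -0.12 without the 4 arrays of raised atrial markers. Adcy6 in aged genotype became 0.0013 without background correction, 0.038 with median scaling, 0.033 with probes averaged and 0.17 without those 4 arrays. Without them Adra1b became 0.12 with age in BACHD and 0.13 in aged genotype, and Adcy5 -0.038 with age in WT and -0.040 in aged genotype, all Adcy5 values being at background. With 1 array left out, the ranges that cross 0 were, for genotype in young hearts, -0.14 to 0.18 in Chrm2, -0.056 to 0.17 in Grk5 and -0.15 to 0.0096 in Adcy6. For genotype in aged hearts they were -0.11 to 0.11 in Adcy5 and -0.14 to 0.14 in Adcy6. With age they were -0.32 to 0.0039 in Chrm2 in WT, -0.014 to 0.24 in Chrm2 in BACHD and -0.024 to 0.095 in Adcy5 in WT. For the difference between the ages they were -0.00088 to 0.22 in Adcy5 and -0.079 to 0.20 in Adcy6. The number of arrays and, for Adra1b, Adcy5 and the dimmer probes of the other genes, signal at background limit what these comparisons can show.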
